A study of Mus musculus with 4 samples.

Results

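Th2 cells that lack Menin were compared after a longer and a shorter time in culture. The comparison rests on 2 of the 4 libraries of the series: Menin knockout (KO) cells from the culture named as 3 weeks, and KO cells from the 5-day culture. Members were chosen by level, keeping each gene symbol with a mean of at least 1 FPKM over these 2 libraries. That kept 11027 of 23283 symbols, 138 of them short RNA genes such as microRNAs. FPKM is the number of read fragments per length of transcript, relative to the depth of the library. At the edge of this rule, Lrfn1 (1.42 FPKM after 5 days, 0.582 FPKM in the longer culture) was kept, and Stmn2 (0.181 and 1.82 FPKM) was not.

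All libraries came from splenic CD4 T cells of C57BL/6 mice, labelled wild type (WT) or Menin KO. The 5-day groups of both genotypes were grown for 5 days in 15 ng/ml IL-2 plus 10 ng/ml of the Th2-inducing cytokine IL-4. The 3-week groups of both genotypes had these 5 days, then 2 days with no cytokine added, then 5 days of restimulation on immobilized antibody to the T cell receptor (TCR) together with IL-2 and an antibody that blocks IL-4. The steps described sum to under 3 weeks, and what filled the rest is not described in the sources used here. The 2 KO libraries therefore differ in time, in added IL-4, in blocking of IL-4 and in the rest and TCR restimulation described for the longer culture. The number of TCR stimulations may differ with them, and these cannot be told apart. The sources used here do not give how Menin was deleted, or in which cells.

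Each group held 1 library. No difference below has a replicate error, a test or a p-value, and "higher" and "lower" describe these 2 libraries. Depth inferred from the values was 22.74 M reads for KO 5-day and 21.44 M for KO 3-week, and 20.7 and 23.54 M for the WT libraries. A 95% counting interval is given beside some ratios. It covers the counting of reads and says nothing of variation between mice or cultures.

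Menin is a scaffold protein of Trithorax group complexes, which place methyl groups on histone H3 at active genes and oppose Polycomb repression. The study asks how Menin acts in Th2 cells and in the memory cells derived from them. Th2 cells are helper T cells that make IL-4, IL-5 and IL-13 under the transcription factor GATA3. A helper T cell that is stimulated again gives up lymph node homing receptors, takes on effector genes and, after many divisions, may enter senescence, a lasting exit from the cell cycle that is often marked by the CDK inhibitor locus Cdkn2a and by secreted factors.

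Men1, the gene of Menin (ENSMUSG00000024947, chr19:6334979-6340891, GRCm38), stood at 10.3 FPKM in the 5-day and 5.88 FPKM in the 3-week KO library. The WT libraries held 32.8 and 25.4 FPKM. The longer KO culture thus had 57.0% of the 5-day level (counting interval 49.9% to 64.9%). Both KO libraries were below both WT libraries. One value per gene cannot tell which exons gave the reads that remain.

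The cells carried CD4 T cell and Th2 markers. Of the CD4 T cell markers, Cd4 stood at 147 and 307 FPKM in the shorter and longer KO culture, Cd3e at 240 and 318 FPKM, Cd3d at 180 and 225 FPKM, and Cd3g at 539 and 1028 FPKM. Of the 5 Th2 markers, Gata3, the Th2 regulator, stood at 69.8 and 45.9 FPKM and Il4 at 9.71 and 6.4 FPKM, both within 2-fold. Il5 (1.91 and 22.4 FPKM), Il13 (3.68 and 19.1 FPKM) and Il1rl1, the IL-33 receptor gene (1.74 and 5.32 FPKM), were higher. Tbx21, the regulator of Th1 cells, stood at 45.3 FPKM in the longer KO culture, beside 45.9 FPKM of Gata3. Most markers of other cells were low. The B cell list (6 markers) summed to 2.76 and 0.278 FPKM, with Cd79a, Ms4a1, Pax5 and Blk at 0 in the longer culture. The NK cell list (5 markers) summed to 3.55 and 2.43 FPKM, with Klra4 at 0 in both KO libraries and Ncr1 at 0.244 and 0.110 FPKM. Cd8a stood at 0.540 and 0.653 FPKM and Cd8b1 at 5.16 and 3.12 FPKM. The monocyte and macrophage list (6 markers) summed to 11.0 and 15.4 FPKM, mostly Cd68 at 8.35 and 12.9 FPKM. Cd14 stood at 0.509 and 2.03 FPKM, past 2-fold higher, while Emr1, the F4/80 gene, stood at 1.82 and 0.364 FPKM, past 2-fold lower. Lyz2 and Csf1r were at 0.154 and 0.012 FPKM after 5 days and at 0 in the longer culture. The dendritic cell list (5 markers) summed to 2.54 and 8.73 FPKM, nearly all of it Itgax, while Flt3 stood at 0 and 0.027 FPKM. The mast cell and basophil list (5 markers) summed to 25.0 and 18.3 FPKM, and its members went both ways. Cpa3 stood at 21.6 and 10.2 FPKM, past 2-fold lower, and Mcpt8 at 2.63 and 7.93 FPKM, past 2-fold higher. Of the 2 regulatory T cell markers Foxp3 stood at 1.66 and 0.133 FPKM and Ikzf2 (Helios) at 0.557 and 2.25 FPKM.

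In the longer KO culture 510 of 11027 symbols (4.63%) were higher by 2-fold or more, and 488 (4.43%) lower by as much, than in the 5-day culture. Ratios were taken as log2((3-week FPKM + 1)/(5-day FPKM + 1)), on which differences of genes with low values come out too small. Over the same symbols the WT libraries gave 300 higher (2.72%) and 295 lower (2.68%). These symbols were kept for their KO level, so genes with low WT values are among them, and their WT ratios come out small. Kept by their own mean of at least 1 FPKM, the WT libraries gave 334 of 10695 symbols higher (3.12%) and 301 lower (2.81%). In KO, 129 symbols were higher by 4-fold or more and 71 lower by as much, and 54 and 38 were at least 8-fold apart. Either way, 998 symbols (9.05%) were at least 2-fold apart in KO. The median log2 ratio over all symbols was -0.06 in KO and 0.01 in WT. In KO the ratio was above 0 for 4817 symbols and below 0 for 6210. Just past the 2-fold line lay Anxa5 (51.5 and 104 FPKM) on the higher side and Jag2 (6.47 and 2.73 FPKM) on the lower side, and just short of it lay Ncf4 (48.5 and 98.0 FPKM) and Mfhas1 (2.52 and 0.759 FPKM). In bulk RNA, fewer cells of a kind and less RNA per cell cannot be told apart.

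Chosen for their KO ratio, the genes on the higher side had to gain in their share of the RNA, so the KO shares describe only its size. They held 3.32% of all FPKM in KO 5-day and 13.1% in KO 3-week, against 2.05% and 3.01% in the WT libraries. The genes on the lower side held 7.34% of all FPKM in KO 5-day and 1.82% in KO 3-week, against 6.56% and 4.91% in WT. With short RNA genes left out, 462 of 10889 genes (4.24%) were higher and 440 (4.04%) lower. Among the higher genes, 98 were under 1 FPKM in KO 5-day, and 145 had a mean under 1 FPKM in the WT libraries. Among the lower genes, 96 were under 1 FPKM in KO 3-week, while 19 had a WT mean under 1 FPKM.

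**Figure D1:**
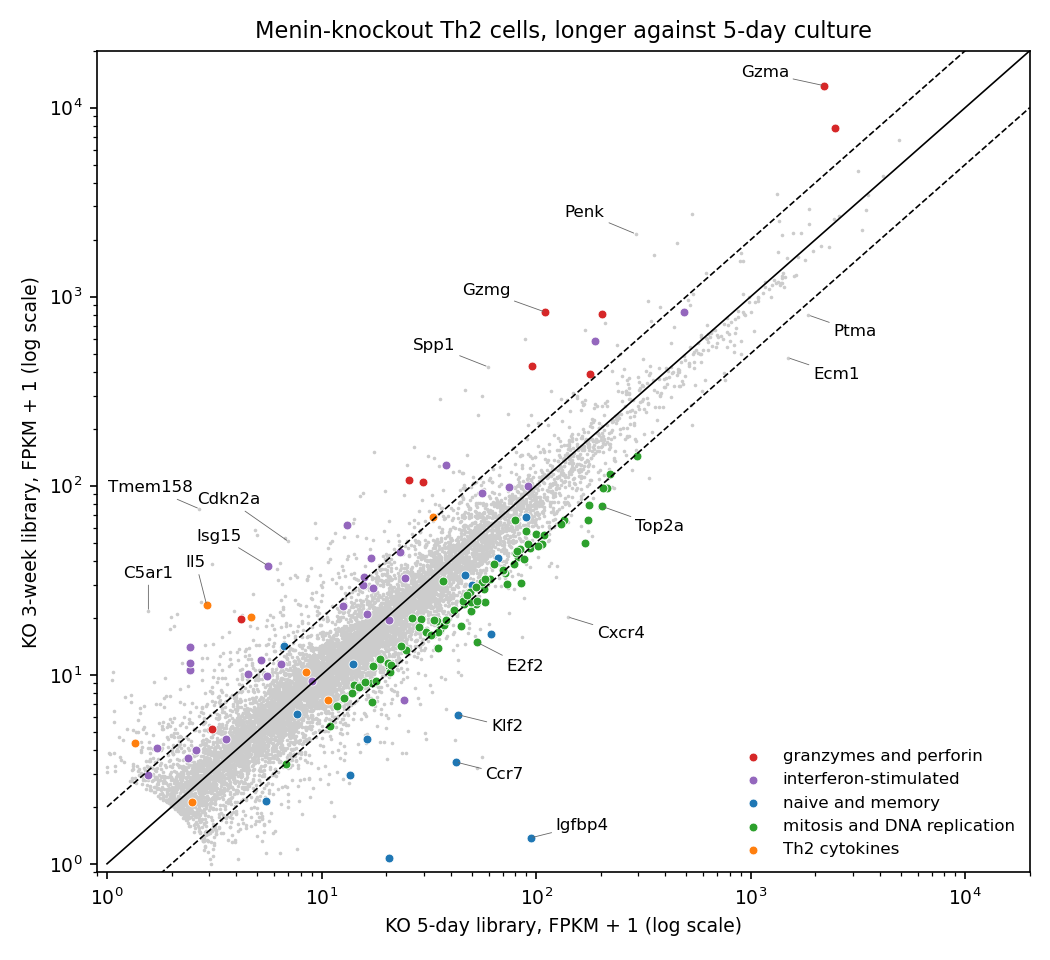
Each point is 1 compared symbol, with FPKM + 1 in the KO 5-day library on the x axis and in the KO 3-week library on the y axis, both on log scales. The solid line marks equal levels and the dashed lines 2-fold; coloured points are members of 5 gene lists, and Gzma (2197 and 13071 FPKM) lies at the top while Igfbp4 lies near the bottom.

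On the log2 scale with 1 FPKM added, the highest ratio belonged to Tmem158, a membrane protein gene known for its induction in Ras-induced senescence. It stood at 1.69 FPKM in the 5-day and 74.5 FPKM in the 3-week KO library, 44.0-fold apart (counting interval 34 to 58.3), and at 0.0938 and 0.745 FPKM in WT. C5ar1, the receptor for the complement fragment C5a, stood at 0.559 and 20.7 FPKM in KO and at 0 and 0.130 FPKM in WT. Ramp3, which modifies calcitonin family receptors, stood at 3.88 and 57.5 FPKM in KO and at 2.02 and 1.74 FPKM in WT. As plain folds, C1ql3 (0.0537 and 8.43 FPKM, 157-fold) and Ccl9 (0.0626 and 9.38 FPKM, 150-fold) were further apart, on 5-day levels under 0.1 FPKM. For Tmem158, C5ar1 and Ramp3 the KO 3-week library stood apart from the 3 other libraries.

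Several genes of the same rank encode secreted proteins. Hgfac, the protease that activates hepatocyte growth factor, stood at 2.08 and 37.6 FPKM in KO. Esm1, a secreted proteoglycan gene, stood at 4.0 and 54.1 FPKM, while both WT libraries were at or under 2.38 FPKM. Nov, a matricellular protein gene, stood at 1.12 and 19.9 FPKM in KO and under 1 FPKM in WT. Penk, the precursor of enkephalin peptides, was far more abundant, at 290 and 2148 FPKM in KO. It stood at 233 and 771 FPKM in WT, so the WT libraries differed in the same direction. Csf2rb, the shared chain of the IL-3, IL-5 and GM-CSF receptors, stood at 1.74 and 23.2 FPKM in KO and under 0.1 FPKM in both WT libraries. The other genes among the 20 highest ratios were Upp1, Ccl9, C1ql3, Ccl4, Lima1, Serpine2, Ccl5, Il5, Cd7, Gzmg, Cdkn2a and Spp1.

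The lowest ratio belonged to Igfbp4, which encodes a binding protein for insulin-like growth factors (chr11:99041244-99054392). It stood at 93.4 FPKM in the 5-day and 0.372 FPKM in the 3-week KO library, 0.398% of the 5-day level (counting interval 0.267% to 0.573%). In WT it stood at 527 and 115 FPKM. Its neighbours Top2a and Ccr7 were also at least 2-fold lower in KO, and these 3 lie side by side among compared protein-coding genes at chr11:98992943-99155077. Cd24a, a surface glycoprotein gene, stood at 51.8 and 2.20 FPKM in KO, and at 141 and 15.5 FPKM in WT. Trat1, an adaptor of the TCR, stood at 55.2 and 2.69 FPKM in KO, and at 88.1 and 33.7 FPKM in WT. Myb, a transcription factor gene of immature and dividing blood cells, stood at 73.7 and 10.5 FPKM in KO, and at 103 and 65.2 FPKM in WT. In these 4 genes both genotypes were lower in the longer culture, with the ratio further from 0 in KO. Cox6b2, a subunit gene of cytochrome oxidase, went the other way in WT: it stood at 22.8 and 2.84 FPKM in KO, and at 10.9 and 19.3 FPKM in WT.

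**Figure D2:**
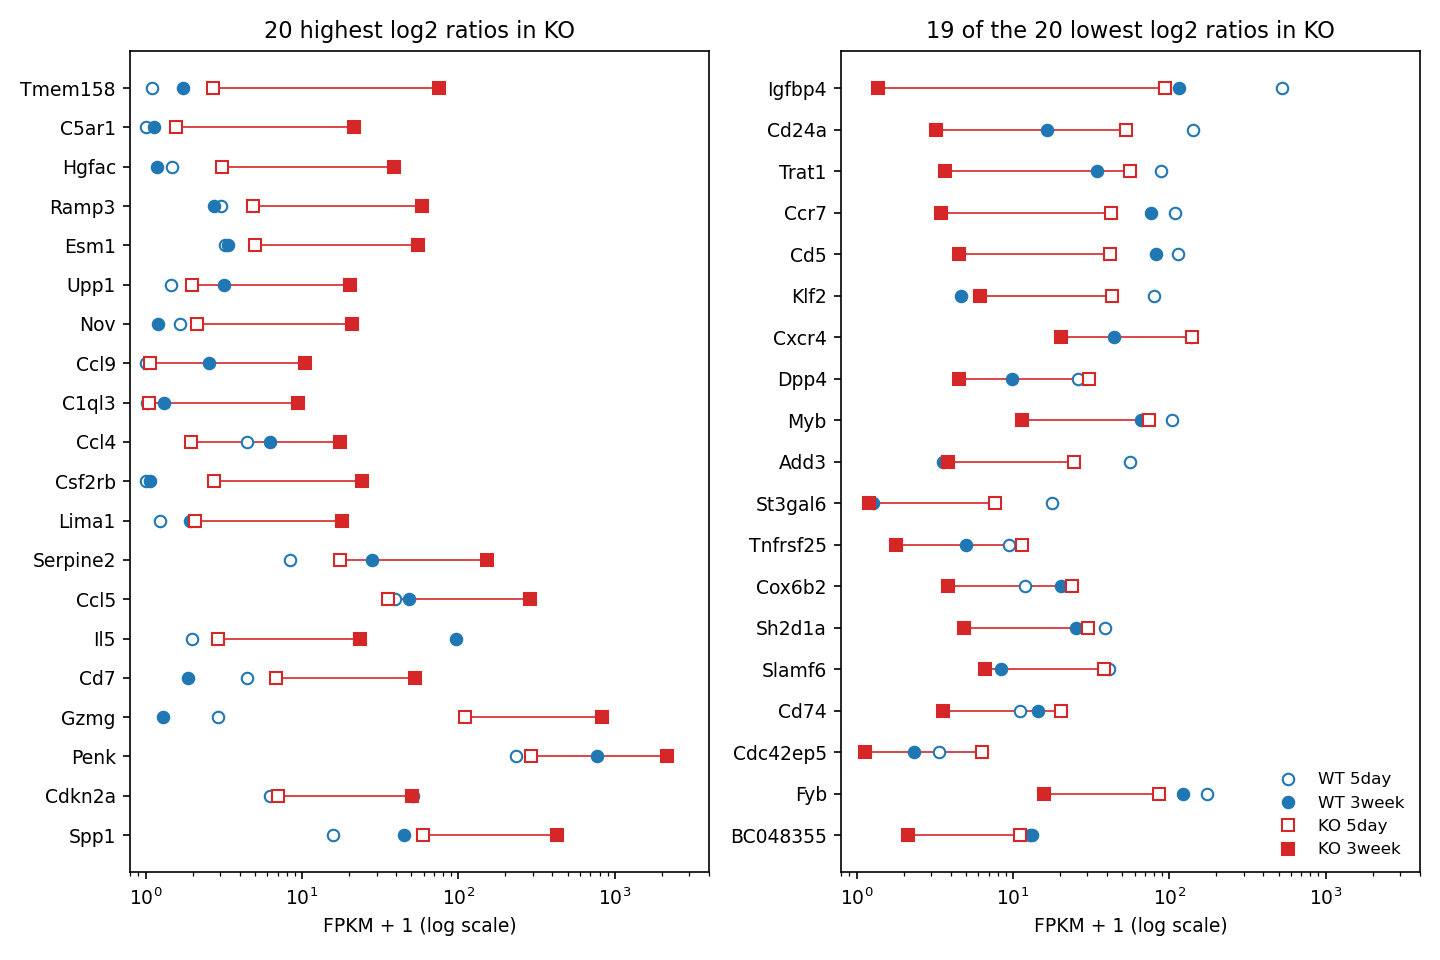
The 20 genes with the highest log2 ratio in KO (left) and 19 of the 20 with the lowest (right), each with at least 5 FPKM in either KO library, with FPKM + 1 on a log scale, circles for WT, squares for KO, open for 5-day and filled for 3-week. Among the higher genes most WT circles lie to the left of the filled KO square, with Il5 and Cdkn2a as exceptions; among the lower genes the filled KO square lies at or near the left end.

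Ranked by FPKM itself, the largest gain was that of Gzma, from 2197 to 13071 FPKM. Gzmb followed, at 2470 and 7838 FPKM. Together these 2 granzyme genes made up 0.984% of all FPKM in KO 5-day and 4.37% in KO 3-week. S100a4, a calcium-binding protein gene, stood at 532 and 2743 FPKM, Ctsd, the lysosomal protease cathepsin D, at 352 and 1661 FPKM, and Ifitm1, an interferon-induced membrane protein gene, at 451 and 1913 FPKM. B2m, the light chain of MHC class I, stood at 4919 and 6709 FPKM, a large gain in FPKM but a log2 ratio of 0.45. These values are those of KO, and some gains were shared with WT. In WT, S100a4 was at 59.6 and 635 FPKM, a log2 ratio of 3.39 against 2.36 in KO. Ifitm1 was also higher in WT (19.4 and 49.1 FPKM), with the larger ratio in KO. B2m had a log2 ratio of 0.37 in WT. Ctsd stayed within 2-fold in WT (145 and 170 FPKM). Gzma (485 and 322 FPKM) and Gzmb (599 and 540 FPKM) were lower there, within 2-fold. The largest losses were those of Ptma (prothymosin alpha, 1859 and 798 FPKM), Rplp1, Ecm1 (1494 and 474 FPKM), Rpl41 and Vim. Ecm1 was also past 2-fold lower in WT (437 and 118 FPKM), while Ptma stayed within 2-fold there (2168 and 1890 FPKM). Hsp90ab1, a chaperone gene, stood at 1038 and 658 FPKM and Tubb5, a tubulin gene, at 748 and 395 FPKM. FPKM is relative to the library total, so a gain in abundant genes lowers the FPKM of the rest.

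The KO and WT culture contrasts share no library. Over 10372 genes compared in both (short RNA left out), the log2 ratios had a Pearson correlation of 0.415 and a Spearman correlation of 0.316, over genes, which are not independent replicates. Of these genes 317 were at least 2-fold higher in KO and 266 in WT, and 114 in both, which is 36.0% of the KO genes and 42.9% of the WT genes. On the lower side there were 421 in KO, 254 in WT and 95 in both, which is 22.6% and 37.4%. Of the 317 KO-higher genes, 72 had a WT ratio below 0, and of the 421 KO-lower genes, 60 had one above 0. The median WT log2 ratio was 0.56 over the 317 and -0.46 over the 421. Over all KO-compared symbols, short RNA included, it was 0.01. Few genes were at least 2-fold apart in opposite directions: of 10476 symbols compared in both genotypes, short RNA genes included, 17 were higher in KO and lower in WT (0.162%), 11 were lower in KO and higher in WT (0.105%), 28 in all (0.267%). The KO libraries were less alike than the WT libraries: log2(FPKM + 1) correlated over genes at 0.944 between the KO cultures and 0.964 between the WT cultures.

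**Figure D3:**
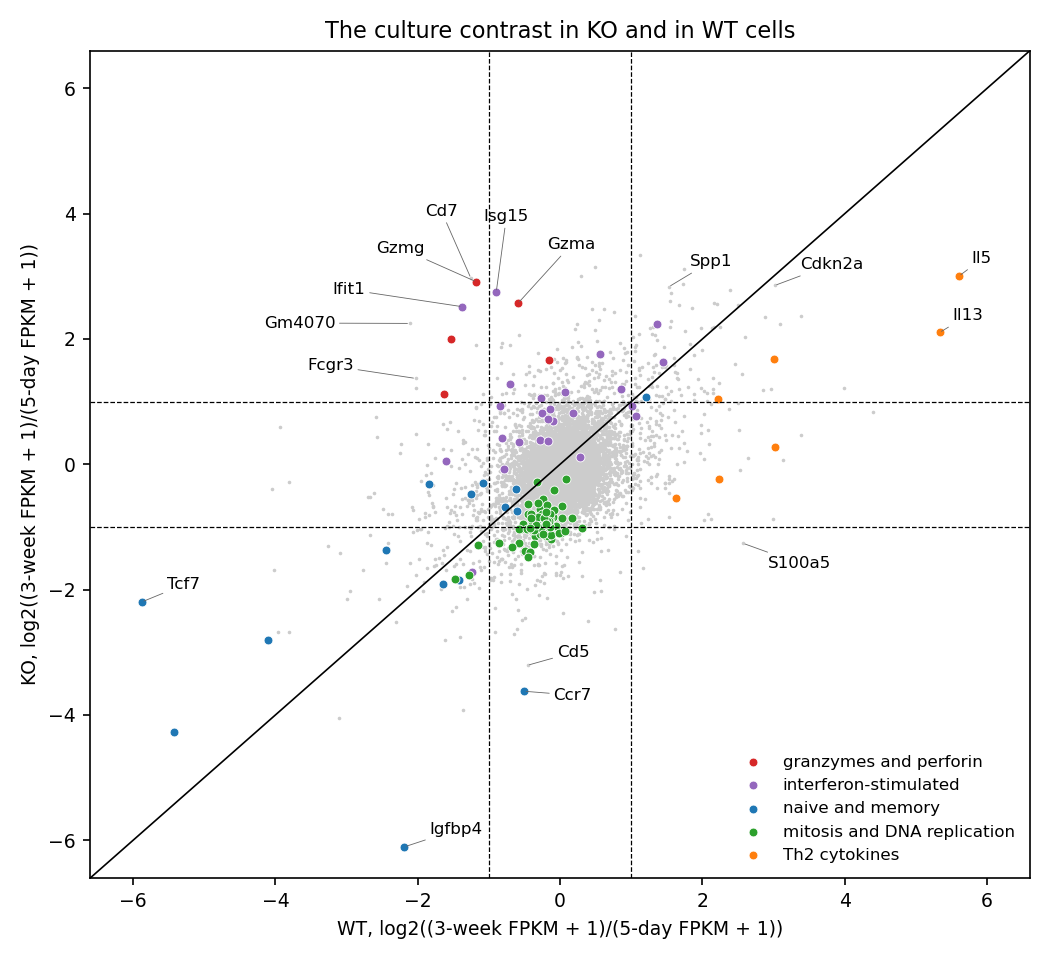
The log2 ratio of the longer over the 5-day culture in WT (x axis) and in KO (y axis) for symbols compared in both, with dashed lines at 2-fold and a solid line of equality. Granzyme genes lie in the upper left and upper middle, most interferon-stimulated genes above 0 on the KO axis (29 of 31 compared in KO), DNA replication and mitosis genes between 0 and -2 on the KO axis, and Th2 cytokine genes to the right of the line of equality.

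Genes of naive and memory T cells were lower in both genotypes. Of 15 compared genes, 8 were lower by 2-fold or more and 1 higher in KO (median -1.37), against 10 lower and 1 higher in WT (median -1.42). Klf2, a transcription factor that keeps T cells circulating, stood at 42.0 and 5.15 FPKM in KO and at 78.6 and 3.64 FPKM in WT. Tcf7, the factor TCF-1 of naive and memory cells, stood at 12.5 and 1.95 FPKM in KO and at 61.3 and 0.0622 FPKM in WT, so the longer KO culture stood above the longer WT culture. Ccr7, the chemokine receptor for entry into lymph nodes, parted the genotypes: it stood at 41.5 and 2.45 FPKM in KO and at 107 and 75.3 FPKM in WT. Il7r, the receptor for the survival cytokine IL-7, stayed within 2-fold in both (88.6 and 67.0 FPKM in KO). The 1 higher member was Bcl2, an inhibitor of cell death, at 5.69 and 13.1 FPKM in KO and at 12.1 and 29.2 FPKM in WT.

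Receptors and adaptors around the TCR went both ways in KO. Of 25 compared genes 4 were higher by 2-fold or more and 6 lower (median -0.08), against 3 and 0 in WT (median -0.05). Cd5, a surface receptor that dampens TCR signalling, stood at 40.7 and 3.51 FPKM in KO and at 112 and 81.3 FPKM in WT. Cd6, a related receptor, stood at 12.1 and 1.99 FPKM in KO and at 59.5 and 52.2 FPKM in WT. Sh2d1a, the adaptor SAP, stood at 29.3 and 3.90 FPKM in KO and at 37.9 and 24.5 FPKM in WT. For Cd5, Cd6 and Sh2d1a the KO 3-week library was the low one among the 4. Costimulatory Cd28 (76.3 and 32.1 FPKM), Icos (113 and 50.8 FPKM) and Slamf1 (6.16 and 2.25 FPKM) were the other lower members. On the higher side were Cd4, Tnfrsf18 (GITR, 245 and 498 FPKM), Tnfrsf9 (4-1BB, 117 and 314 FPKM) and Cd69, an early activation marker, at 8.06 and 24.2 FPKM in KO against 10.4 and 7.39 FPKM in WT. Core kinases and phosphatases stayed within 2-fold: Lck stood at 142 and 99.8 FPKM, Zap70 at 75.9 and 86.7 FPKM and Ptprc (CD45) at 128 and 127 FPKM.

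Activation transcription factors did not move as a block. Of 21 compared, 5 were higher and 1 lower in KO (median 0.13). Id2, a regulator of effector lymphocytes, was the most abundant, at 332 and 946 FPKM in KO and 195 and 349 FPKM in WT. Egr1 stood at 1.19 and 4.44 FPKM and Egr3 at 0.434 and 3.39 FPKM, both TCR-induced early genes, while Fos and Nr4a2 stayed under 1 FPKM in both KO libraries. Batf3, the lower member, stood at 9.67 and 1.63 FPKM in KO and at 24.3 and 36.7 FPKM in WT. Among genes of the IL-2 receptor family and its feedback, Socs1 (36.0 and 94.2 FPKM) and Cish (49.7 and 110 FPKM) were higher, as in WT, and Il6ra was lower (5.98 and 1.16 FPKM). Il2 itself was listed at 0 in both KO libraries.

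Of all lists, the granule protease genes had the medians furthest apart between the genotypes. Of 10 compared granzyme and perforin genes 9 were higher by 2-fold or more and 0 lower in KO (median 2.03). In WT 0 were higher and 5 lower (median -0.82). The 10 were kept for their KO level, and Gzmf, Gzmk and Gzmn were under 1 FPKM in both WT libraries. With 1 FPKM added, such WT ratios come out small, so the WT median is not comparable with that of KO. Granzymes are serine proteases that kill target cells and perforin opens a way in for them. Gzmg (ENSMUSG00000040284) stood at 109 and 829 FPKM in KO and at 1.92 and 0.289 FPKM in WT. Gzmd stood at 202 and 811 FPKM in KO, Gzmc at 177 and 388 FPKM, Gzme at 94.9 and 429 FPKM, and Gzmf at 24.6 and 106 FPKM. Gzmn, at 3.21 and 18.7 FPKM, and the 5 genes named before it are close copies between which reads may be split, so single values are uncertain. Their sum was 611 and 2581 FPKM in KO, 4.23-fold apart, and 16.2 and 3.22 FPKM in WT. Prf1 (perforin) stood at 28.6 and 103 FPKM in KO and at 1.71 and 0.0912 FPKM in WT. Gzmk, at 2.09 and 4.16 FPKM, was the member under 2-fold on the log2(FPKM + 1) scale, and Gzmm, under 1 FPKM in both KO libraries, was not compared.

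Several of the granzyme genes sit side by side. At chr14:56082166-56262260 (GRCm38) 9 neighbouring compared genes, Mcpt8, Ctsg, Gzme, Gzmd, Gzmg, Gzmn, Gzmf, Gzmc and Gzmb, were at least 2-fold higher in KO. Among them, Mcpt8 is also on the mast cell and basophil marker list. Runs of 3 or more genes in 1 direction, next to each other among 9534 compared protein-coding genes, numbered 12 on the higher and 6 on the lower side. Genes not compared were skipped, so a run can be wide: Gfra2, Fndc3a and Cysltr2 spanned 2159 kb. Other runs on the higher side held Ccl5, Ccl9, Ccl3 and Ccl4 at chr11:83525778-83664683, the 3 Bcl2a1 copies at chr9:88723285-89207827, Gpr162, Cd4 and Lag3 at chr6:124858444-124911705, and Ifitm5, Ifitm2 and Ifitm1 at chr7:140948958-140969825.

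The remaining machinery of cytotoxic granules was mixed. Of 15 compared genes 4 were higher and 0 lower in KO (median 0.26). Nkg7, a granule membrane protein gene, stood at 88.2 and 595 FPKM in KO and at 14.1 and 43.5 FPKM in WT. Ctsw, a protease gene of cytotoxic lymphocytes, stood at 32.3 and 139 FPKM in KO and at 7.72 and 4.84 FPKM in WT. Ctsc, which activates granzymes, stood at 19.2 and 41.4 FPKM, and the death ligand Tnfsf10 (TRAIL) at 7.6 and 19.5 FPKM. The genes of granule docking and release stood within 2-fold in KO: Unc13d at 43.1 and 44.5 FPKM, Rab27a at 24.0 and 15.8 FPKM, Stx11 at 22.5 and 12 FPKM and Stxbp2 at 48.6 and 50.8 FPKM. Lysosomal genes gave 3 higher of 20 and 0 lower (median 0.58, against 0.17 in WT), namely Ctsd, Cd63 (2.11 and 13.5 FPKM) and Lamp2 (25.8 and 59.7 FPKM).

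Receptors best known from NK cells gave fewer genes past 2-fold than the granzymes. Of 13 compared, 4 were higher and 1 lower in KO (median 0.71), against 0 higher and 4 lower in WT (median -0.40). The 13 were kept for their KO level, and most of them were under 1 FPKM in both WT libraries. With 1 FPKM added, their WT ratios come out small, so the WT median is not comparable with that of KO. Cd7 stood at 5.77 and 52.1 FPKM in KO and at 3.43 and 0.857 FPKM in WT. Cd244, the receptor 2B4, stood at 2.72 and 15.9 FPKM in KO and under 1 FPKM in WT. Klrd1 (CD94) stood at 3.71 and 11.1 FPKM in KO and at 1.73 and 0.127 FPKM in WT, and Klra5 at 0.139 and 3.68 FPKM in KO. The lower member, Klra7, stood at 1.80 and 0.330 FPKM. The defining NK marker Ncr1 was under 1 FPKM in both KO libraries, and 13 of the 26 listed receptors were too low to be compared. Of 6 Fc receptor and adaptor genes 1 was higher, Fcgr3, at 27.5 and 72.8 FPKM in KO and 5.64 and 0.624 FPKM in WT. The ratio was above 0 in KO and below 0 in WT for 6 of 6, which were kept for their KO level. Of these, Fcgr2b and Tyrobp were under 1 FPKM in both WT libraries, so their WT ratios come out small. Syk, also listed, went down in KO (1.12 and 0.386 FPKM) and was too low to be compared. The signalling chain Fcer1g stood at 61.3 and 104 FPKM in KO and at 6.11 and 0.186 FPKM in WT.

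Of 18 compared Th1 genes, 7 were higher in KO by 2-fold or more and 2 lower (median 0.77), against 2 and 2 in WT (median -0.35). The ratio was above 0 for 14 in KO and for 6 in WT. Tbx21 (T-bet), the Th1 regulator, stood at 20.7 and 45.3 FPKM in KO and at 8.08 and 6.68 FPKM in WT. Ifng, the Th1 cytokine interferon gamma, stood at 0.70 and 6.03 FPKM in KO and under 1 FPKM in WT. Il12rb2, part of the receptor for IL-12, stood at 18.3 and 41.7 FPKM and Il18rap, of the IL-18 receptor, at 12.3 and 41.6 FPKM. Hopx, a homeodomain protein gene of effector Th1 cells, stood at 19.0 and 42.5 FPKM in KO and at 10.8 and 4.54 FPKM in WT. The lower members were Cxcr3 (16.7 and 5.82 FPKM) and Ifngr2, a chain of the interferon gamma receptor, at 11.7 and 2.52 FPKM. Eomes, related to T-bet, stood at 8.42 and 6.36 FPKM and Runx3 at 54.5 and 53.6 FPKM, both within 2-fold.

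Interferon-stimulated genes gave 12 higher and 1 lower of 31 in KO (median 0.88), against 4 higher and 3 lower in WT (median -0.26). The ratio was above 0 for 29 of 31 in KO and for 10 in WT. Isg15, a ubiquitin-like modifier gene, stood at 4.61 and 36.8 FPKM in KO, 7.99-fold apart (counting interval 6.09 to 10.7), and at 5.41 and 2.44 FPKM in WT. Ifit1, which binds foreign RNA, stood at 1.45 and 13.0 FPKM in KO and at 1.92 and 0.121 FPKM in WT. Rsad2 (viperin) stood at 1.45 and 9.61 FPKM in KO and at 1.12 and 0.259 FPKM in WT. In these 3 genes the KO 3-week library was the highest of the 4 and the WT 3-week library the lowest. Mx1 (12.1 and 60.8 FPKM), Zbp1 (37.1 and 128 FPKM) and Irf7, the interferon regulatory factor (16 and 40.4 FPKM), were further higher members, and Gm4902 (23.2 and 6.37 FPKM) was the lower one. Interferon-inducible GTPases gave 3 higher of 15 and 0 lower (median 0.52): Iigp1 (11.1 and 31.8 FPKM), Gbp9 and Irgm2. MHC class I presentation genes gave 0 higher and 0 lower of 16 (median 0.30, and 0.29 in WT).

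Promoters of such genes can hold a short motif known as the interferon-stimulated response element. It was searched as GAAANNGAA on both strands in promoter windows of RefSeq (GRCm38.p6, the build of the files). It was found in 13 of 28 windows of the interferon-stimulated list (46.4%), which cover 23 of its 31 compared genes. Over all compared genes it was found in 7.10% of 11233 windows, in 11.4% of those of the higher genes and in 5.90% of those of the lower genes. Of the GTPase windows, 9 of 11 held it (81.8%). The list holds genes known to respond to interferon, so a high share describes the list and not the culture contrast. The 150 bases just before the start site are shown for the 3 members with the highest ratio that hold the motif there, with motif letters in capitals. Isg15 lies at chr4:156200819-156200968 on the minus strand, Ifit1 at chr19:34640739-34640888 on the plus strand and Rsad2 at chr12:26456453-26456602 on the minus strand.
Isg15: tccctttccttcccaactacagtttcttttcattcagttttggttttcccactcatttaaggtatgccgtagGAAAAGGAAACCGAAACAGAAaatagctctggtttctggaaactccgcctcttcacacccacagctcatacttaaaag
Ifit1: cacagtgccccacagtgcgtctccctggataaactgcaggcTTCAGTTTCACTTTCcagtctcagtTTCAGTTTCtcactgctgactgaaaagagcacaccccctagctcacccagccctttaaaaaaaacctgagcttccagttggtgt
Rsad2: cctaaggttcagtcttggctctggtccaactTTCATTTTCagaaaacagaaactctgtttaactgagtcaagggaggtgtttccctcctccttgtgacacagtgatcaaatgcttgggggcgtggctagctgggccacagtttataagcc
Isg15 and Ifit1 each hold 3 matches, some of them overlapping, and Rsad2 holds 1. Counted from the start site, the first match begins 78 bases before it in Isg15, 109 in Ifit1 and 119 in Rsad2.

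Chemokine ligand genes were among the steepest. Of 7 compared, 5 were higher and 0 lower in KO (median 1.70), against 2 and 1 in WT (median 0.30). Ccl5 (RANTES), which draws T cells and monocytes, stood at 34.7 and 286 FPKM in KO and at 38.4 and 47.4 FPKM in WT. Ccl4 stood at 0.962 and 16.5 FPKM in KO and at 3.46 and 5.27 FPKM in WT, and Ccl3 at 1.20 and 6.14 FPKM in KO and 2.69 and 2.81 FPKM in WT. Ccl9 stood at 0.0626 FPKM in KO 5-day, about 4 reads, and at 9.38 FPKM in KO 3-week. After 5 days Ccl3, Ccl4 and Ccl5 were lower in KO than in WT, and in the longer culture they were higher. Of 11 chemokine receptor genes 2 were higher, Ccr1 (8.45 and 52.1 FPKM) and Cxcr6 (42.9 and 118 FPKM), and 4 lower, Ccr7, Cxcr4 (140 and 19.2 FPKM), Cxcr3 and the Th2 receptor Ccr4 (71.2 and 32.7 FPKM). The WT libraries had 2 higher and 3 lower among the 11. Integrin genes gave 4 higher of 16, Itga1, Itga2, Itgam and Itgax, and 1 lower, Itga4, at 24.3 and 4.01 FPKM. Itgam and Itgax are also carried by myeloid cells: they stood at 0.392 and 4.75 FPKM and at 2.45 and 8.63 FPKM. Of the monocyte and macrophage markers, Cd14 stood at 0.509 and 2.03 FPKM, Cd68 at 8.35 and 12.9 FPKM and Emr1 at 1.82 and 0.364 FPKM. Lyz2 and Csf1r were at 0 in the longer culture. The part of such cells in these values was not tested.

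Genes of secreted and matrix proteins gave 9 higher and 1 lower of 16 in KO (median 1.56), against 5 and 3 in WT (median 0.01). Like the other lists, this list was chosen with earlier results of these data known, so its counts only describe its members. Trf, Hgfac and Tgfb3 were under 1 FPKM in both WT libraries, so their WT ratios come out small. Spp1 (osteopontin), a matrix protein and cytokine, stood at 58.7 and 424 FPKM in KO and at 14.7 and 44.2 FPKM in WT. Lgals3, the galectin 3 gene, stood at 169 and 664 FPKM in KO and at 38.8 and 55.9 FPKM in WT. Trf (transferrin) stood at 8.29 and 62.5 FPKM in KO and under 1 FPKM in WT. In KO, Serpine2, a protease inhibitor gene, stood at 16.5 and 151 FPKM, Col18a1, a basement membrane collagen gene, at 24.0 and 127 FPKM, and Fgl2 at 26 and 160 FPKM. Each was also at least 2-fold higher in WT: Serpine2 at 7.34 and 26.9 FPKM, Col18a1 at 3.06 and 7.40 FPKM and Fgl2 at 4.37 and 22.9 FPKM. Ecm1, a secreted protein gene of Th2 cells, was the lower member. Lgals1 stood at 3505 and 3459 FPKM and Tgfb1 at 265 and 202 FPKM, both within 2-fold.

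Inhibitory receptor and exhaustion genes gave 8 higher and 0 lower of 14 in KO (median 1.22), against 5 and 1 in WT (median 0.16). Havcr2 (TIM-3) stood at 11.7 and 52.3 FPKM in KO and at 2.47 and 6.51 FPKM in WT. Cd274 (PD-L1) stood at 6.53 and 32.7 FPKM in KO and at 4.43 and 5.27 FPKM in WT. Pdcd1 (PD-1) stood at 13.2 and 31.6 FPKM in KO and at 4.38 and 22.9 FPKM in WT, and Lag3 at 15.0 and 36.6 FPKM in KO and 4.04 and 11.4 FPKM in WT. So Pdcd1 and Lag3 were higher after the longer culture in both genotypes. Ctla4 went the other way, at 113 and 59.4 FPKM in KO. Tox, a transcription factor gene of exhausted T cells, was under 1 FPKM in both KO libraries, while its relative Tox2 stood at 0.835 and 6.49 FPKM.

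Th2 cytokine genes were higher in fewer KO than WT members, with 4 of 7 in KO (median 1.05) and 7 of 7 in WT (median 3.00). Il13 stood at 3.68 and 19.1 FPKM in KO and at 1.62 and 105 FPKM in WT. Il10 stood at 32.0 and 67.2 FPKM in KO and at 22.3 and 108 FPKM in WT. Areg, an epidermal growth factor relative, stood at 0.353 and 3.34 FPKM in KO and at 0.240 and 8.94 FPKM in WT. Il24 parted the genotypes, at 7.5 and 9.31 FPKM in KO and 11.6 and 101 FPKM in WT, as did Csf2 (GM-CSF), at 1.48 and 1.11 FPKM in KO and 0.865 and 7.73 FPKM in WT.

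Regulators and receptors of Th2 cells gave 1 higher and 4 lower of 19 in KO (median -0.45), against 4 and 1 in WT (median 0.36). Irf4, a transcription factor induced by TCR signalling and needed for Th2 cells, stood at 19.1 and 5.09 FPKM in KO and at 37.4 and 67.9 FPKM in WT. Gfi1, a transcriptional repressor gene, stood at 29.3 and 12.9 FPKM in KO and at 32.9 and 29.0 FPKM in WT. Il2ra, the high-affinity chain of the IL-2 receptor, stood at 257 and 152 FPKM in KO and at 324 and 638 FPKM in WT. For Irf4 and Il2ra the 2 genotypes differed in direction. Il1rl1 (ST2, the IL-33 receptor) was the higher member, at 1.74 and 5.32 FPKM in KO and 1.05 and 14.9 FPKM in WT. Maf (43.7 and 46.3 FPKM), Stat6 (42.3 and 47.2 FPKM) and Rbpj (50.9 and 53 FPKM) stood within 2-fold in KO.

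**Figure D4:**
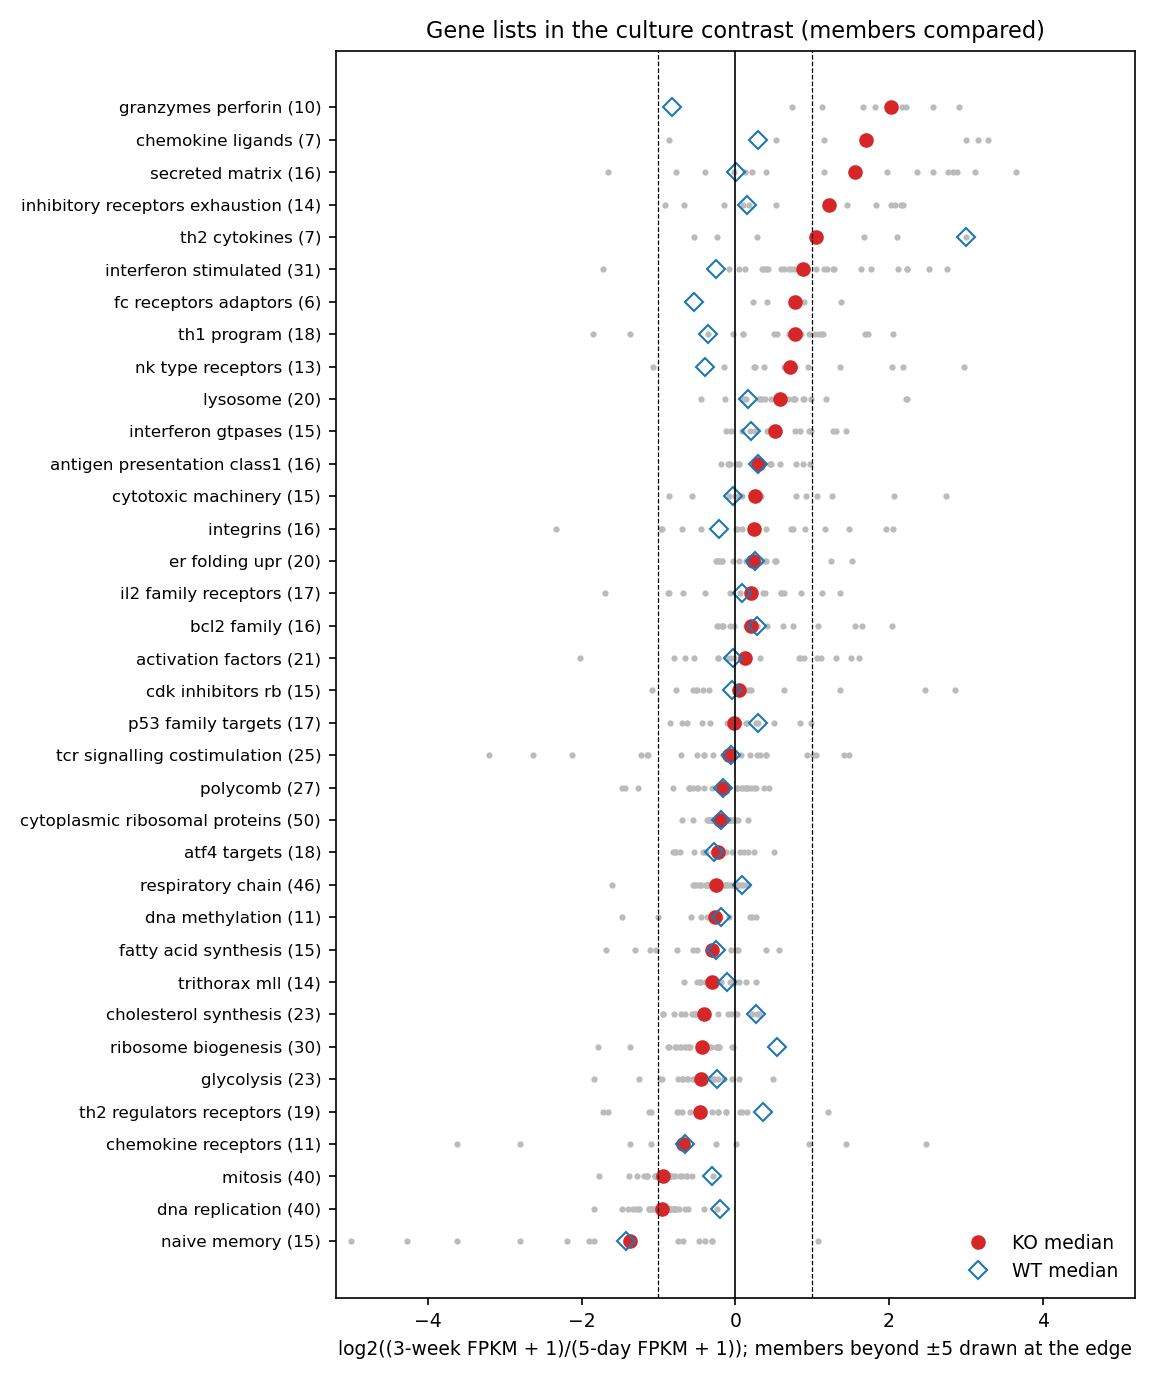
Each row is a gene list with the number of members compared in brackets; grey points are the members' log2 ratios in KO, the red circle their median and the open blue diamond the WT median. Granzymes and perforin lie at the top (KO median 2.03, WT median -0.82) and naive and memory genes at the bottom (KO -1.37, WT -1.42).

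Cell cycle genes were lower in the longer KO culture. Of 40 genes of DNA replication and the G1/S step 18 were lower by 2-fold or more and 0 higher (median -0.96), against 2 lower in WT (median -0.20). Of 40 genes of mitosis 16 were lower and 0 higher (median -0.95), against 1 lower in WT (median -0.30). The ratio was below 0 for 80 of the 80 genes in KO and for 73 in WT, and it was lower in KO than in WT for 79 of 80. Summed over the 80 genes, FPKM was 5276 after 5 days and 2567 in the longer KO culture, and 5970 and 4844 in WT. That sum was 1.11% of all FPKM in KO 5-day and 0.536% in KO 3-week.

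Mcm6, a subunit of the replicative helicase, stood at 174 and 65.1 FPKM in KO and at 203 and 151 FPKM in WT. Top2a, which untangles chromosomes, stood at 201 and 76.9 FPKM in KO and at 242 and 172 FPKM in WT. Mki67, a marker of cycling cells, stood at 175 and 78.4 FPKM in KO and at 194 and 152 FPKM in WT. After 5 days these 3 genes stood close together in KO and WT, and in the longer culture the KO library was the lowest of the 4. Uhrf1, which carries DNA methylation through replication, stood at 84.4 and 29.7 FPKM in KO, and E2f2, a transcription factor of the G1/S step, at 52.1 and 13.9 FPKM. E2f2, Ccne1 and Cdc25b were the 3 genes also at least 2-fold lower in WT. The smallest KO ratios were those of Rfc3 (35.9 and 30.3 FPKM) and Prc1 (79.1 and 64.8 FPKM).

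**Figure D5:**
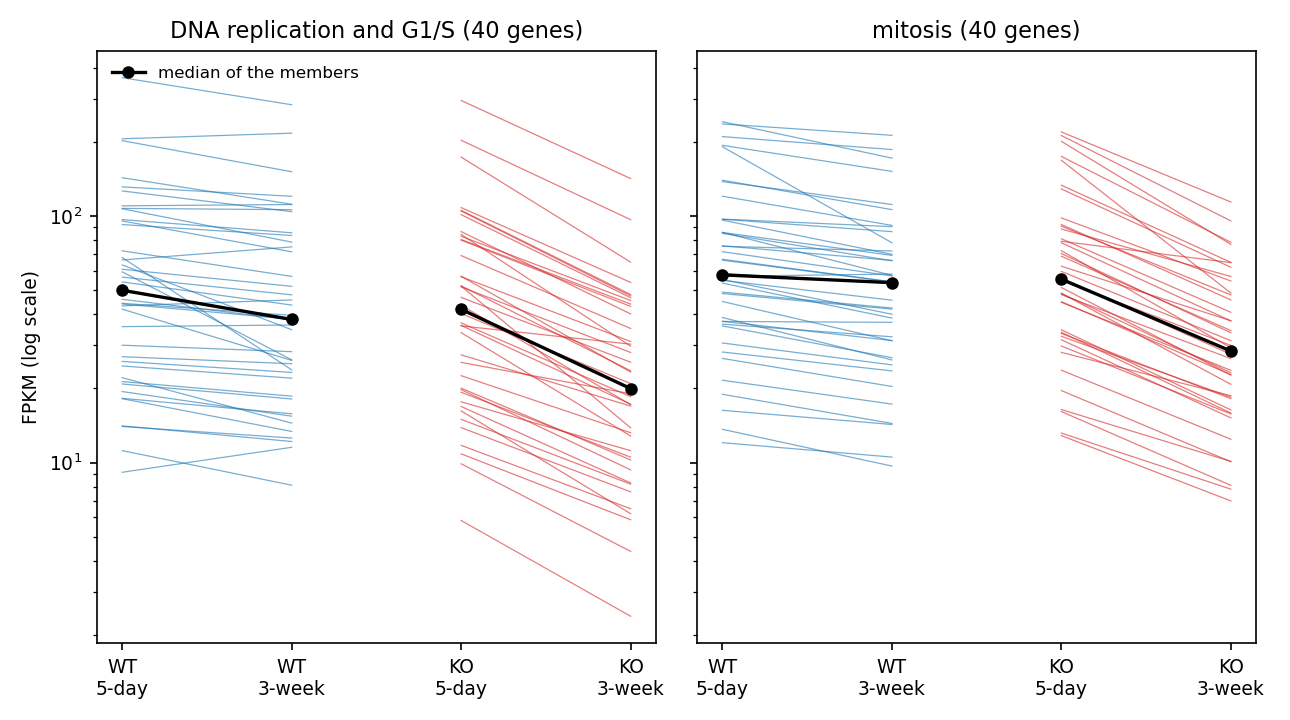
FPKM on a log scale for 40 genes of DNA replication and the G1/S step (left) and 40 genes of mitosis (right), 1 line per gene from the 5-day to the 3-week library of WT (blue) and KO (red), with the median in black. The median of the mitosis genes stood at 57.8 and 53.7 FPKM in WT and at 55.5 and 28.4 FPKM in KO; that of the replication genes stood at 50.1 and 38.1 FPKM in WT and at 41.9 and 19.98 FPKM in KO.

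E2F factors, which drive the G1/S genes, bind TTTGGCGC or TTTCCCGC, and many mitotic promoters carry CCAAT boxes. The E2F letters were found in 14 of 76 windows of the 2 lists (18.4%) and in 11 of 36 windows of their lower members (30.6%), against 3.06% of all windows. The 2 lists hold genes of these kinds, so a high share of E2F letters or CCAAT describes the lists and not the culture contrast. CCAAT was found in 65.8% of the windows of the 2 lists, in 38.1% of all windows, in 34.5% of those of higher genes and in 35.8% of those of lower genes. The windows of the higher genes held the E2F letters in 2.59% and those of the lower genes in 6.11%. That last share is 28 windows, and 11 of them belong to the 2 lists. For AP-1, the Fos and Jun pair (TGANTCA), the share was 4.99% over all windows, 10.3% among higher and 6.11% among lower genes. For a T-box motif (TCACACCT) it was 0.846% over all windows, 0.431% among higher and 1.53% among lower genes (2 and 7 windows). The bases before the start site are shown for 3 lower members that hold E2F letters there, in capitals together with CCAAT: Mcm6 (chr1:128359706-128359855, minus strand), Cdc6 (chr11:98908001-98908150, plus strand) and Ncapd2 (chr6:125191587-125191736, minus strand).
Mcm6: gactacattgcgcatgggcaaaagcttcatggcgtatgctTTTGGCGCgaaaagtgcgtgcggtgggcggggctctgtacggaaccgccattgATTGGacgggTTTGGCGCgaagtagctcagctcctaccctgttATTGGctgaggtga
Cdc6: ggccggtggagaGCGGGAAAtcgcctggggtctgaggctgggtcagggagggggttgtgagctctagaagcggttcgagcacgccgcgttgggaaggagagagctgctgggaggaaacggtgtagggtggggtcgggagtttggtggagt
Ncapd2: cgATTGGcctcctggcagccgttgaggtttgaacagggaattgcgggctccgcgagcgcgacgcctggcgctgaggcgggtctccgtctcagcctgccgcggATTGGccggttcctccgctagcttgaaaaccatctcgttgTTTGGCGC
Mcm6 holds 2 matches to the E2F letters and 2 to CCAAT, Cdc6 holds 1 and 0, and Ncapd2 holds 1 and 2. Cdc6, which loads the helicase on DNA, stood at 16.2 and 6.21 FPKM in KO, and Ncapd2, a condensin subunit, at 129 and 62.0 FPKM.

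CDK inhibitor and RB genes gave 3 higher and 1 lower of 15 in KO (median 0.05) and the same counts in WT (median -0.05). Cdkn2a, which encodes p16 and ARF, stood at 6.01 and 49.7 FPKM in KO, 8.27-fold apart (counting interval 6.67 to 10.3), and at 5.29 and 49.9 FPKM in WT. The 2 genotypes thus stood close to each other at both times. Its neighbour Cdkn2b (p15) was not: it stood at 2.91 and 20.7 FPKM in KO and at 1.29 and 2.52 FPKM in WT. Ccnd2 (cyclin D2) stood at 44.7 and 116 FPKM in KO and at 43.8 and 105 FPKM in WT. Cdkn1c was the lower member (2.32 and 0.570 FPKM), and Cdkn1a (p21) stood at 115 and 127 FPKM. Of 17 p53 family and target genes 0 were higher and 0 lower in KO (median -0.02), with Trp53 at 83.5 and 51.1 FPKM, Mdm2 at 59.3 and 107 FPKM and Trp73 at 17.5 and 35.6 FPKM.

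BCL2 family genes, which set the threshold of cell death, gave 4 higher and 0 lower of 16 in KO (median 0.21), against 6 and 1 in WT (median 0.29). The 4 were Bcl2 and Bcl2a1a, Bcl2a1b and Bcl2a1d, near-identical copies that summed to 15.9 and 64.0 FPKM in KO and 20.3 and 45.5 FPKM in WT. Bcl2l11 (BIM), which promotes death, stood at 10.9 and 9.54 FPKM in KO and at 8.08 and 1.47 FPKM in WT. Mcl1 stood at 81.8 and 99.4 FPKM in KO.

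Metabolic and growth lists lay mostly below 0 in KO with few members past 2-fold. Over all compared symbols, 6210 of 11027 lay below 0 in KO and 488 (4.43%) were lower by 2-fold or more. So 1 or 2 lower members in lists of these sizes are not far from the share over all symbols. Ribosome biogenesis genes had a ratio below 0 for 30 of 30 in KO (2 lower, median -0.44) and above 0 for 28 of 30 in WT (3 higher, median 0.54). Fbl (fibrillarin, of ribosomal RNA processing) stood at 46.7 and 25.0 FPKM in KO and at 68.1 and 73.6 FPKM in WT. Gar1 stood at 24.0 and 8.69 FPKM in KO, and Myc, an activator of such genes, at 20.3 and 14.7 FPKM in KO against 38.4 and 75.8 FPKM in WT. Glycolysis genes gave 2 lower of 23, Ldhb (8.08 and 1.53 FPKM) and the glucose carrier Slc2a3, with a median of -0.45. Cholesterol synthesis genes gave 0 higher and 0 lower of 23 (median -0.41 in KO, 0.27 in WT), with Sqle at 10.4 and 4.95 FPKM in KO and 16.5 and 23.9 FPKM in WT. Fatty acid synthesis genes gave 4 lower of 15 in KO (Scd1, Fads1, Fads2 and Acsl3) and 4 in WT (Scd1, Scd2, Fads1 and Fads2). Fads2, a desaturase gene, stood at 26.3 and 7.48 FPKM in KO and at 24.7 and 0.582 FPKM in WT.

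Of 46 respiratory chain genes 1 was lower in KO, Ndufa4, at 114 and 36.7 FPKM against 161 and 167 FPKM in WT. The list's median was -0.25 in KO and 0.09 in WT. Cytoplasmic ribosomal protein genes gave 0 higher and 0 lower of 50, with close medians in the 2 genotypes (-0.20 in KO and -0.19 in WT). Among 20 genes of protein folding in the endoplasmic reticulum 2 were higher, the stress sensor Ern1 (10.2 and 31.2 FPKM) and its target Dnajb9 (8.61 and 21.9 FPKM), while Hspa5 stood at 188 and 270 FPKM. Targets of the amino acid stress factor ATF4 gave 0 higher and 0 lower of 18 in KO (median -0.23).

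Chromatin regulators stood within 2-fold with few exceptions. Of 27 Polycomb genes 3 were lower in KO (median -0.15) and 0 in WT (median -0.17). Ezh2, the histone H3 methyltransferase of Polycomb, stood at 77.7 and 27.3 FPKM in KO and at 114 and 93.6 FPKM in WT. Rbbp7 stood at 101 and 41.2 FPKM and Phf19 at 16.6 and 5.53 FPKM in KO. Ezh1, the paralogue of Ezh2, stood at 18.4 and 24.1 FPKM, and Bmi1 at 14.3 and 12.8 FPKM. Of 14 Trithorax and MLL complex genes, partners of Menin, 0 were higher and 0 lower in KO (median -0.31, and -0.11 in WT), with Mll1 at 25.1 and 19.0 FPKM. Of 11 DNA methylation genes 2 were lower, Uhrf1 and the maintenance methyltransferase Dnmt1 (121 and 59.6 FPKM). Ezh2, Uhrf1 and Dnmt1 are also known as genes of dividing cells, and the summed cell cycle lists above stood lower in the same library. Their part in these values was not tested.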

How the data were processed

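RNA-seq was analysed from 4 libraries, 1 for each genotype and culture, grouped by sample title. Per the labels' protocols, TRIzol was used for RNA and a TruSeq Stranded mRNA kit for the libraries. Deposited values are FPKM per gene symbol, made by the authors with Bowtie 0.12.8, TopHat 1.3.2 and Cufflinks 2.0.2 (genome build mm10), according to the submitters' processing notes. The annotation, the read layout, any filter and whether strand was used were not given in the sources used here.

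A file had 23746 lines. Values of the 240 symbols on more than 1 line (702 lines) were summed, and 1 symbol with a spreadsheet error in place of a value was left out. Symbols with a mean of at least 1 FPKM in the 2 KO libraries were compared as log2((a + 1)/(b + 1)) and counted at 2-fold, with no test, since each group holds 1 library. The WT libraries were treated alike. Python 3.11.15, pandas 2.3.3, NumPy 2.4.6 and SciPy 1.17.1 were used.

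No read counts were stated. Depth was inferred from steps in the low FPKM values of single-transcript genes in GENCODE, with 200 bases taken off each length: 55.53% to 59.55% of the values used lay within 0.05 of a whole read, against 10% if spread evenly, so depths and counting intervals (exact Clopper-Pearson, 95%) are approximate. The log2 ratio and the 2-fold rule were run on simulated reads drawn at these depths. The depths and the counting intervals themselves were not tested in this way.

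Named genes were Men1, the 20 highest and 20 lowest KO ratios with at least 5 FPKM in either KO library, the 10 largest gains and 10 largest losses in FPKM, the 10 strongest genes with opposite directions in KO and WT, and members of 36 gene lists. The ranked names exclude short RNA genes, and some genes that the rule names are not reported here. Genes outside this rule are said to have been chosen after their values were seen, apart from the 4 at the 2-fold line, the 2 at the 1 FPKM line and the members of neighbouring runs. Members and lists were chosen with earlier results of these data known. Trac, Trdc, Tcrg-C1, Ly6g, Ifi27, Kmt2b and Kmt2d had no clear match and were not analysed here. Coordinates are those of GRCm38 (GENCODE), and promoter windows those of RefSeq.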

Additional observations from a re-analysis of the deposited data

Results flagged for a closer look

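Some genes were at least 2-fold apart in opposite directions in the 2 genotypes. With short RNA genes included there were 28 of 10476 symbols (0.267%), 17 higher in KO and lower in WT (0.162%) and 11 the other way (0.105%). With 1 library a group, the difference between the genotypes was not tested for any of them. The granzyme and perforin list had a median log2 ratio of 2.03 in KO and -0.82 in WT, short of 2-fold in WT, where 5 of 10 members were lower by 2-fold or more. The 10 were kept for their KO level, and some were under 1 FPKM in both WT libraries, so their WT ratios come out small. Of this list, Gzmg (2.91 in KO, -1.18 in WT) and Gzmd (2.00 and -1.53) were among the 10 strongest. Cd7, a receptor of T and NK cells, had 2.97 in KO and -1.25 in WT. Fcgr3, an Fc receptor, had 1.37 and -2.03. Ifit1 had 2.52 and -1.38. Gm4070 had 2.25 and -2.12, Mndal 1.22 and -2.02, and Pydc3 1.38 and -1.35; these 3 belong to interferon-inducible gene families with close copies, between which reads may be split. Hsd11b1, which regenerates active glucocorticoid, had 1.90 in KO and -1.18 in WT. S100a5, a calcium-binding protein gene, was the reverse, at -1.26 in KO and 2.57 in WT, on 35 and 11 inferred reads in KO.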

How the results depend on the processing

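No paired analysis was possible because each group holds 1 library and the labels give no replicate numbers, and for the same reason no replicate could be left out. With a pseudocount of 5 in place of 1, KO had 254 genes higher and 214 lower, and opposite genes numbered 17. The WT libraries, kept here by their own mean, had 151 and 125, against 334 and 301 with a pseudocount of 1. With a mean of at least 5 FPKM required, WT had 162 lower and opposite genes numbered 18, since fewer genes were compared. Without short RNA genes opposite genes numbered 14. The median of the p53 list, -0.02, was 0.046 under median-of-ratios scaling and 0.037 under upper-quartile scaling. The split of higher and lower KO genes depended on the scaling: 556 and 408 (57.7% higher) by median of ratios, 552 and 421 (56.7%) by upper quartile and 578 and 603 (48.9%) with library sums made equal at a round total, which also roughly doubles the values and so lessens the weight of the added 1 FPKM, against 510 and 488 (51.1%). A pseudocount of 0.1 gave 661 and 674. Of 50 counts recomputed, 42 stayed within 1.5 times. Of 680 values of named genes 0 changed sign and 114 moved by more than their counting error. Of 180 list medians 20 moved by at least 0.1 on the log2 scale besides the p53 median, and 41 of 360 list counts moved by over 1.5 times. The naive and memory median, -1.37, was -1.90 with a pseudocount of 0.1 and -0.68 with 5, and the chemokine ligand median, 1.70, was 2.27 and 0.85. With 0.1, Ccl9 (5.87) and C1ql3 (5.79) stood above Tmem158 (5.38). Genes under about 1 FPKM rest on few reads, so large folds there are the least exact.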

Other observations

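Some genes outside the lists were picked after their values were seen, so their direction is no support for anything. Receptors usually described on myeloid cells stood high in KO 3-week. Lilrb4, an inhibitory receptor gene, stood at 54.8 and 299 FPKM in KO 5-day and 3-week and at 30.7 and 52.3 FPKM in WT, and its near copy Gp49a at 52.7 and 236 FPKM in KO. Clec4e, a receptor for microbial lipids, stood at 0.872 and 8.59 FPKM in KO and under 0.1 FPKM in WT. Tarm1, another such receptor gene, was higher in both genotypes, at 5.24 and 30.8 FPKM in KO and 4.32 and 38.2 FPKM in WT. Adam8, a membrane protease gene, stood at 208 and 727 FPKM in KO and at 68.3 and 111 FPKM in WT. Csf1, a macrophage growth factor gene, stood at 13.0 and 62.1 FPKM in KO and at 4.30 and 19.9 FPKM in WT. Of the monocyte and macrophage markers, Cd14 stood at 0.509 and 2.03 FPKM and Cd68 at 8.35 and 12.9 FPKM in KO. Emr1 went the other way, at 1.82 and 0.364 FPKM in KO, and Lyz2 and Csf1r were at 0 in KO 3-week. A part of such cells in these values was not tested.

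MHC class II genes, also picked after their values were seen, stood lower in KO 3-week. Of 7 compared, 5 were at least 2-fold lower. H2-Ab1, a chain of the class II molecule, had the highest level of them in KO 5-day and was lower in both genotypes, at 37.8 and 17.8 FPKM in KO and at 17.1 and 3.50 FPKM in WT. Cd74, the invariant chain, stood at 19.2 and 2.58 FPKM in KO and at 10.0 and 13.5 FPKM in WT. H2-DMa, which loads peptides, stood at 29.5 and 8.95 FPKM in KO and at 33.0 and 33.5 FPKM in WT. The B cell markers summed to 2.76 and 0.278 FPKM in these KO libraries, and their part in these values was not tested. Tnfrsf8 (CD30) parted the genotypes, at 160 and 60.5 FPKM in KO and 197 and 293 FPKM in WT. Lmnb1, the lamin B1 gene whose loss is used as a mark of senescence, stood at 174 and 56.5 FPKM in KO and at 219 and 169 FPKM in WT.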
